A study of Mus musculus with 44 samples.

Results

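Dendritic cells (DCs) that had come to the inguinal lymph node of mice without a tumour were compared between the light and the dark phase of the day. These are the sham controls of the series, chosen by their labels: 3 mice injected subcutaneously with PBS at ZT3 and 3 at ZT15, which are 6 of the 44 RNA-seq libraries. ZT is zeitgeber time, counted in hours from lights on under 12 h of light and 12 h of darkness, so ZT3 lies in the light phase and ZT15 in the dark phase. All 6 were female mice of 8 to 12 weeks with the genotype label WT, and CD45+CD11c+MHCII high cells, the gate for migratory DCs, were sorted from the lymph nodes collected 24 h after the injection. Each library came from 1 mouse. The comparison asks which transcripts of these cells differ by time of day when no tumour cells are given. In the study, light cabinets were used to shift the phase of mice when several timepoints were examined at once. The labels do not say whether any of these 6 mice were kept in them.

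The comparison groups were injected with B16-F10-OVA cells, a mouse melanoma line that expresses ovalbumin. They comprised 10 control mice (5 at each of ZT3 and ZT15) and 6 mice labelled Bmal1ΔcDC (3 at each), in which Cre under Clec9a is meant to delete Bmal1 (gene symbol Arntl) in conventional DCs. Mean Arntl was 16.5 CPM (counts per 1000000 reads on genes) at ZT3 and 11.5 CPM at ZT15 in control mice with tumour cells, and 19.8 and 17.6 CPM in those labelled Bmal1ΔcDC. It was not lower in the latter, so they are named here by their label. No sham mice of that genotype were used here.

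The circadian clock is a transcriptional loop. BMAL1 (Arntl) and CLOCK bind E-boxes and activate the Per and Cry repressors, the nuclear receptors REV-ERBα and REV-ERBβ (Nr1d1 and Nr1d2), and output factors such as DBP. Body temperature of mice, which are active at night, rises in the dark phase, and transcripts of heat shock proteins and of cold-inducible RNA-binding proteins are known to follow it in many tissues. The heat shock proteins are chaperones that HSF1 induces through heat shock elements, repeats of GAA and its complement TTC. Migratory DCs take antigen from tissue to the lymph node and carry high MHC class II, CCR7 and co-stimulatory molecules.

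Short promoter stretches of 2 genes are shown because they carry the motifs of these systems, and the values of both genes are described further on. Cry1 encodes a clock repressor. Its stretch is chr10:85185107-85185136 (minus strand, 82 to 53 bases before the start site). Hspe1 encodes the mitochondrial chaperonin HSP10. Its stretch is chr1:55088053-55088082 (plus strand, 95 to 66 bases before the start site). Both are RefSeq sequences of GRCm38.p6, written 5′ to 3′. Capitals mark an E′-box and an E-box in Cry1 and overlapping heat shock elements in Hspe1.
Cry1: agaAACGTGaggtgccggtggtCACGTGgg
Hspe1: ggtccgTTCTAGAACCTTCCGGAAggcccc

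Motifs were searched on both strands of RefSeq windows from 250 bases before to 50 bases after each start site, of which there were 32851. The E-box, CACGTG, was in 7.15% of the windows (9.64% of those of genes tested), and the E′-box, CACGTT, in 4.68% (5.15%). The heat shock element, the units GAA, TTC and GAA with 2 bases between neighbours, was in 0.603% (0.497%). A gene can have several windows, and genes are counted below if any of theirs held the motif. Of the 8 clock repressors listed, 6 had a window. Among them Cry1, Per1, Ciart and Bhlhe41 held an E-box, and Cry1 and Cry2 held an E′-box. None of the 6 clock activators and nuclear receptors with a window held an E-box, and Nr1d1 held an E′-box. Of the 4 output factors with a window Tef held an E-box, and Dbp held none of these 3 motifs. Of the 14 genes of the heat shock and cold-inducible list, 10 had a window, and Hspe1, Hspd1, Hsph1 and Chordc1 held a heat shock element, while Hspd1 and Hsph1 also held an E-box. The windows of Hspe1 and Hspd1 overlap, and their heat shock elements are the same bases, so these are not separate matches. A match shows that these letters are present, and binding was not measured here.

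The 6 libraries held 35183297 to 49590055 reads on genes, as recovered from the value of 1 read. Of the 14699 genes of the table, 11963 reached 1 CPM in at least 5 of the 44 libraries and were tested. Markers of the labelled cells were high. Ccr7, the receptor that guides DCs to lymph nodes, was between 3934 and 5797 CPM, Fscn1 (fascin, typical of mature DCs) between 2767 and 4663 CPM and the MHC class II gene H2-Ab1 between 2638 and 4178 CPM. The DC markers Flt3, Zbtb46 and Itgax were at 529 to 619, 91.4 to 165 and 43.1 to 68.8 CPM, respectively. The libraries did not separate cleanly by timepoint. Across genes the third ZT15 mouse was closest to the first and second ZT3 mice (r = 0.974 and 0.971). With the other ZT15 mice its r was 0.966 and 0.960. Lowest in correlation with the ZT3 mice was the second ZT15 mouse (r = 0.949 to 0.955). The second ZT15 mouse had the highest summed level of the T cell (2099 against 1271 to 1527 CPM in the other 5), NK cell (932 against 236 to 441 CPM) and granulocyte and mast cell lists (249 against 54.6 to 120 CPM).

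No gene had an adjusted p under 0.05 between ZT15 and ZT3 (limma, Benjamini-Hochberg over 11963 genes). The smallest adjusted p was 0.311. With all 44 libraries in the fit 12 genes passed, among them Dbp, Eif2ak3, Dynll1, Btbd1 and Cirbp, with an intensity trend Dynll1 and Eif2ak3 passed, and with no filter on low values 2 other genes passed. At an unadjusted p under 0.05 there were 1148 genes (9.60% of those tested), of which 454 (3.80%) were higher at ZT15 and 694 (5.80%) higher at ZT3. The median log2 difference of all genes tested was -0.05, and after median-of-ratios scaling it was -0.01 and the split was 606 (5.07%) and 555 (4.64%). Without the third ZT15 mouse 716 genes (5.99%) were higher at ZT15 and 1035 (8.65%) higher at ZT3, and 1 gene, Acad10, had an adjusted p under 0.05. Without the second ZT15 mouse 225 genes were higher at ZT15, and without the second ZT3 mouse 443 were higher at ZT3. All 3 mice of ZT15 lay above all 3 of ZT3 in 788 genes (6.59%) and below them in 994 (8.31%). With 3 mice against 3, an exact permutation test of a single gene cannot give a two-sided p below 0.1. The genes below are therefore described by their levels, and "higher" with an unadjusted p names a difference that did not pass adjustment over all genes.

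The gene with the smallest p among those higher at ZT15 was Usp45, a deubiquitinase. It was at 1.96, 2.56 and 1.24 CPM in the ZT3 mice and at 8.81, 10.1 and 7.93 CPM in the ZT15 mice (log2 difference 2.00 ± 0.30, SE, limma adjusted p = 0.311). At ZT9 and ZT21 it was close to the ZT15 level, with means of 7.39 ± 2.32 and 7.02 ± 2.51 CPM (SD, n = 3), so the ZT3 mice were the ones that stood apart.
Next came Dbp, a PAR bZIP transcription factor and a direct output of the clock (chromosome 7, 45705100 to 45710203 of GRCm38). It was at 21.2, 22.8 and 28.3 CPM at ZT3 and at 59.5, 53.5 and 41.7 CPM at ZT15, 2.11 times as high on the log2(CPM + 0.5) scale (1.08 ± 0.19, SE, limma adjusted p = 0.311). The mean was 36.7 ± 5.87 CPM at ZT9 and 30.4 ± 3.50 CPM at ZT21, so ZT15 had the highest mean of the 4 timepoints.
Dynll1 and Dynll2 encode the LC8 light chains of the dynein motor, and both were higher at ZT15. Dynll1 was at 228, 226 and 257 CPM at ZT3 and at 515, 440 and 386 CPM at ZT15 (0.91 ± 0.17, SE, limma adjusted p = 0.311). Dynll2 was at 70.6, 65.4 and 70.2 CPM and at 136, 102 and 99.6 CPM (0.69 ± 0.14). Both were lower at ZT9 than at ZT15, with means of 242 and 75.9 CPM.
The other 6 genes of this rank were Hsp90aa1 and Hspe1 (below), the HSP70 co-chaperone Dnaja1 (0.64 ± 0.14, SE), Ttc32 (1.20 ± 0.27), the tubulin glutamylase subunit Ttll1 (0.99 ± 0.22) and the mitochondrial ribosomal protein gene Mrpl47 (0.62 ± 0.14). In each of them the groups did not overlap.

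Among genes higher at ZT3, the smallest p was that of Eif2ak3, which encodes PERK, the kinase that lowers translation under endoplasmic reticulum stress (chromosome 6, 70844484 to 70905241). It was at 35.5, 45.2 and 31.0 CPM at ZT3 and at 13.2, 12.6 and 18.3 CPM at ZT15 (-1.32 ± 0.19, SE, limma adjusted p = 0.311). The ZT9 and ZT21 means were 32.7 ± 0.193 and 29.0 ± 3.62 CPM, so here it was ZT15 that stood apart. Of 19 genes of the unfolded protein response list none had an unadjusted p under 0.05 in either direction, beside 9.60% of all genes. When 1 mouse was left out, 0 to 2 were higher at ZT3 and 0 to 1 at ZT15. The chaperone Hspa5 (BiP) was at 597, 568 and 566 CPM at ZT3 and at 501, 610 and 600 CPM at ZT15.
Btbd1, an adaptor of a ubiquitin ligase, was at 79.4, 83.2 and 78.1 CPM at ZT3 and at 52.4, 49.2 and 46.3 CPM at ZT15 (-0.70 ± 0.14). Mapkapk2 encodes MK2, the kinase downstream of p38 that stabilises cytokine mRNAs. It was at 133, 152 and 149 CPM at ZT3 and at 94.1, 96.1 and 72.2 CPM at ZT15 (-0.73 ± 0.16).
Slc5a6, the transporter of biotin and pantothenate, was at 39.4, 38.7 and 45.0 CPM at ZT3 and at 23.6, 18.0 and 25.1 CPM at ZT15 (-0.88 ± 0.20), and it was as low at ZT9 (22.8 ± 5.47 CPM, SD, n = 3). The other 6 were Ahcyl1 (-0.72 ± 0.13), the mitochondrial malonyl-CoA synthetase Acsf3 (-0.77 ± 0.15), Cyp20a1 (-1.58 ± 0.31), the NAD synthetase Nadsyn1 (-0.72 ± 0.15), the pseudouridine synthase Pus7 (-1.74 ± 0.36) and Abhd13 (-0.85 ± 0.18). In each of the 20 genes, p stayed under 0.05 when any 1 of the 6 mice was left out. The 20 were picked by the smallest p in a fit of the same mice, so this is no independent support for them.

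**Figure D1:**
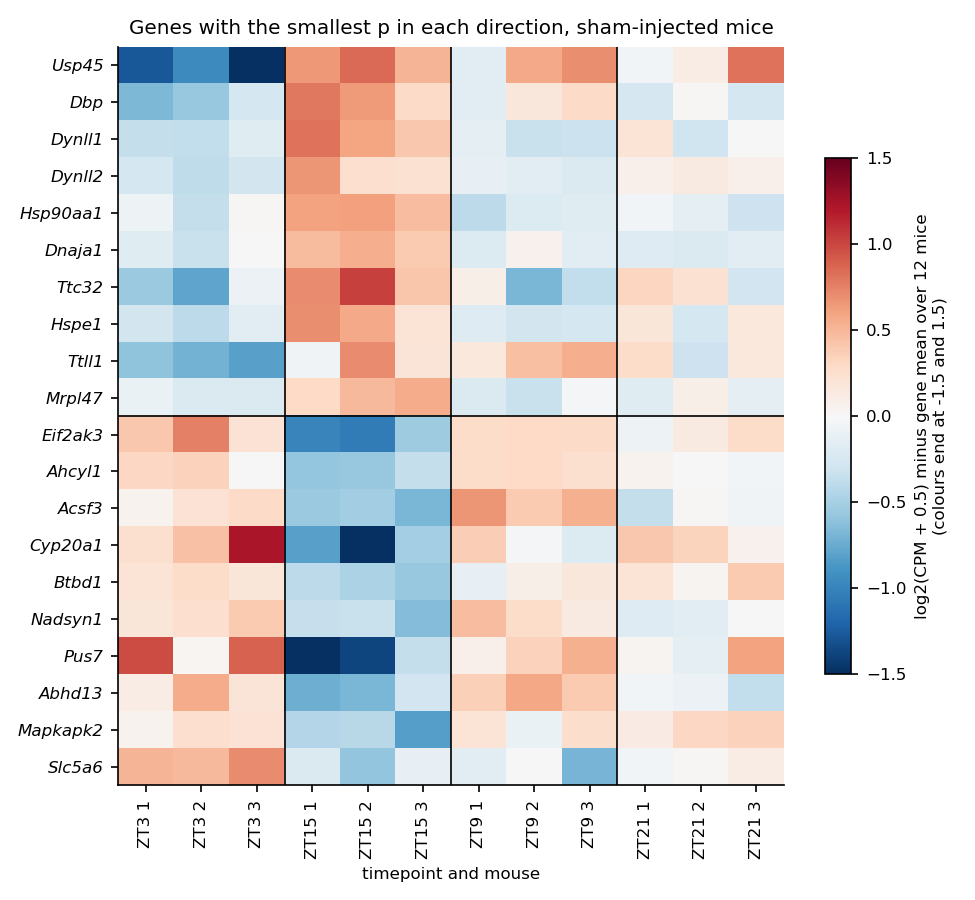
Level of the 10 genes with the smallest p in each direction (rows) in each of the 12 sham mice (columns), as log2(CPM + 0.5) minus the mean of the gene over the 12 mice. The upper 10 rows are red in all ZT15 mice but the first for Ttll1, and the lower 10 rows are blue in all ZT15 mice; Usp45 is lowest in the 3 ZT3 mice and Eif2ak3 in the 3 ZT15 mice.

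The heat shock and cold-inducible list was chosen with earlier results of these data known, so its counts describe these genes and are not independent support for a direction. Of the 14 genes, all of which were tested, 8 were higher at ZT15 (unadjusted p under 0.05) and 1 was higher at ZT3, beside 3.80% and 5.80% of all genes. The median log2 difference of the list was 0.47, against -0.05 over all genes tested. The groups did not overlap in 7 genes with ZT15 above and in 1 with ZT3 above, beside 6.59% and 8.31% of all genes.
Hsp90aa1 and Hsp90ab1 encode the inducible and the constitutive cytosolic HSP90. Hsp90aa1 (chromosome 12, 110691036 to 110696395) was at 286, 235 and 305 CPM at ZT3 and at 458, 461 and 415 CPM at ZT15 (0.70 ± 0.15, SE, limma adjusted p = 0.311). Hsp90ab1 was at 1239, 1069 and 1350 CPM and at 1732, 1646 and 1698 CPM (0.48 ± 0.14). In neither gene did the groups overlap, and the ZT9 and ZT21 means of Hsp90aa1 (252 ± 19.8 and 270 ± 25.0 CPM, SD, n = 3) were at the ZT3 level of 275 ± 36.2 CPM.
Members of the HSP70 family were also higher at ZT15. Hspa8, the constitutive member, was at 1868, 1674 and 1742 CPM at ZT3 and at 2455, 2167 and 2631 CPM at ZT15 (0.45 ± 0.14). The inducible Hspa1a was at 32.3, 26.4 and 32 CPM and at 70.3, 49.9 and 49.6 CPM (0.88 ± 0.26). Hspa1b is a near-identical copy of Hspa1a, so that reads cannot be divided between them with certainty. It was at 20.1, 27.0 and 20.3 CPM at ZT3 and at 66.9, 27.5 and 47.6 CPM at ZT15 (0.98 ± 0.36), and the second ZT15 mouse lay just above the highest ZT3 mouse.
Hspe1, whose heat shock elements are printed above, was at 74.9, 69.1 and 81.2 CPM at ZT3 and at 147, 134 and 105 CPM at ZT15 (0.76 ± 0.17, adjusted p = 0.337). Hspd1 encodes its partner HSP60 from the opposite strand, and its groups overlapped, with 126, 96.9 and 128 CPM at ZT3 and 121, 133 and 165 CPM at ZT15 (0.25 ± 0.18). Chordc1, an HSP90 co-chaperone, differed by 0.36 ± 0.15 and Hsph1, an HSP110, by 0.82 ± 0.37, the latter with an overlap between 31.7 CPM in a ZT3 mouse and 30.7 CPM in a ZT15 mouse. Dnajb1 (0.34 ± 0.17), Hspb1 (0.53 ± 0.35) and Bag3 (-0.06 ± 0.18) did not reach an unadjusted p of 0.05.
The cold-inducible genes lay on the other side. Cirbp (chromosome 10, 80165990 to 80172786), an RNA-binding protein induced by mild cold, was at 224, 177 and 206 CPM at ZT3 and at 82.2, 137 and 90.3 CPM at ZT15, 2.00 times as high at ZT3 (-1.0 ± 0.22, SE, limma adjusted p = 0.336). Rbm3, the related gene, was at 413, 314 and 437 CPM at ZT3 and at 313, 346 and 271 CPM at ZT15, and the groups overlapped (-0.31 ± 0.17, adjusted p = 0.540). The ZT9 level was high in both, with means of 219 ± 26.4 and 450 ± 44.3 CPM.
When 1 mouse at a time was left out, 5 to 9 genes of the list were higher at ZT15, with 5 without the first or the third ZT15 mouse or the third ZT3 mouse, and Cirbp was higher at ZT3 in each refit. Hspa1b, Hsph1 and Chordc1 had an unadjusted p under 0.05 in 2, 1 and 2 of those 6 refits. The labels do not record how the tissue was handled at each time, and its part in these values was not tested. The list of immediate early genes, which dissociation is known to induce, had 0 of 17 members higher at ZT15, beside 3.80% of all genes. It had 1, Atf3, higher at ZT3 (213, 214 and 222 CPM against 155, 134 and 207 CPM), beside 5.80%. The list median was -0.14 with 15 of 17 genes below 0, and 0 to 3 were higher at ZT3 when 1 mouse was left out. The p of Atf3 did not pass 0.05 after median-of-ratios scaling and passed in 1 of 6 refits that left out 1 mouse.

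**Figure D2:**
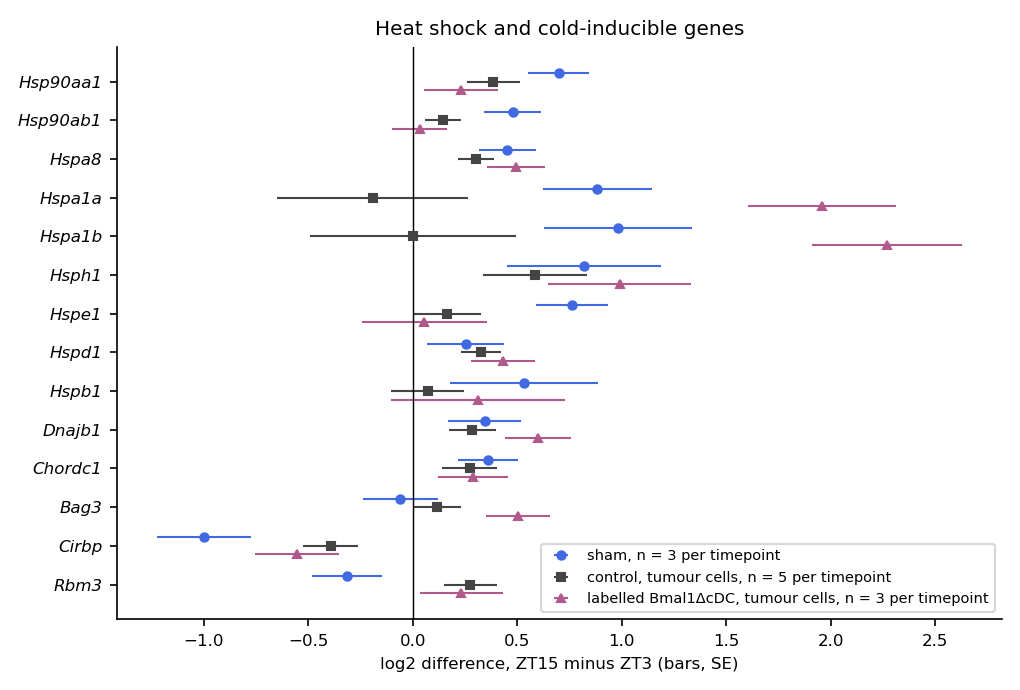
Log2 difference in CPM between ZT15 and ZT3 for the 14 heat shock and cold-inducible genes (horizontal axis, bars are SE) in sham mice, control mice with tumour cells and mice labelled Bmal1ΔcDC with tumour cells. In sham mice 11 of the 14 genes lie above 0, and Cirbp lies below 0 in all 3 groups.

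Among the 3 clock lists, genes with an unadjusted p under 0.05 were found in the repressors and, with Dbp, in the output factors. Of 7 clock repressors tested, 2 were higher at ZT15 and 1 higher at ZT3, beside 3.80% and 5.80% of all genes. Cry1 (chromosome 10, 85131700 to 85185054), whose promoter boxes are printed above, was at 9.16, 12.3 and 11.8 CPM at ZT3 and at 20.6, 26.7 and 16.7 CPM at ZT15 (0.90 ± 0.21, SE, limma adjusted p = 0.346). Cry2, its paralogue, was at 15.1, 15.2 and 12.6 CPM and at 25.3, 17.8 and 18.1 CPM (0.48 ± 0.22, adjusted p = 0.511). The groups did not overlap in either gene, but the p of Cry2 passed 0.05 in only 2 of 6 refits that left out 1 mouse. Bhlhe40 (DEC1), a repressor that competes for E-boxes, went the other way, from 361, 417 and 364 CPM at ZT3 to 229, 262 and 309 CPM at ZT15 (-0.52 ± 0.17, adjusted p = 0.470).
The Per genes overlapped between the timepoints. Per1 was at 9.03, 7.58 and 14.9 CPM at ZT3 and at 10.5, 17.5 and 9.67 CPM at ZT15. Per2 was at 1.29, 7.03 and 4.08 CPM and at 6.37, 3.11 and 3.29 CPM. Per3 was at 3.65, 3.27 and 3.90 CPM and at 8.61, 6.39 and 2.67 CPM. The groups overlapped in all 3, and likewise in Ciart (1.44 to 2.90 CPM at ZT3, 0.597 to 3.85 CPM at ZT15).
None of the 7 activators and nuclear receptors had an unadjusted p under 0.05. Arntl was at 27.3, 25.7 and 22 CPM at ZT3 and at 12.3, 34.8 and 15.1 CPM at ZT15 (-0.41 ± 0.33, adjusted p = 0.671). The second ZT15 mouse was the highest of the 6 and the other ZT15 mice were the lowest. The same mouse was the highest for Rora (62.5 CPM, the other 5 at 28.8 to 54.2), a nuclear receptor that activates Arntl. Rora is also expressed by innate lymphoid and T cells. The summed T cell markers were highest in that mouse, as given above, and their part in this value was not tested.
Clock was at 19.5, 17.2 and 19.9 CPM at ZT3 and at 13.7, 13.7 and 14.9 CPM at ZT15, and these mice did not overlap. The adjusted p of the fit, which takes its spread from all 4 timepoints, was 0.641, and the ZT9 and ZT21 mice had SDs of 7.02 and 5.10 CPM. Nr1d1 was at 7.20, 11 and 5.71 CPM and at 5.49, 10.4 and 6.33 CPM. Its means at the other timepoints were 12.2 ± 6.24 CPM at ZT9 and 3.41 ± 2.16 CPM at ZT21 (SD, n = 3). Nr1d2 overlapped as well, with 25.1, 36.7 and 7.43 CPM at ZT3 and 22.2, 20.1 and 34.1 CPM at ZT15.
Of the other output factors, the PAR bZIP genes Tef and Hlf differed by -0.10 ± 0.23 and 0.21 ± 0.51 between ZT15 and ZT3, and Nfil3 (E4BP4), which represses the sites that DBP activates, by -0.42 ± 0.20 (adjusted p = 0.515). Wee1 differed by -0.13 ± 0.23.

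**Figure D3:**
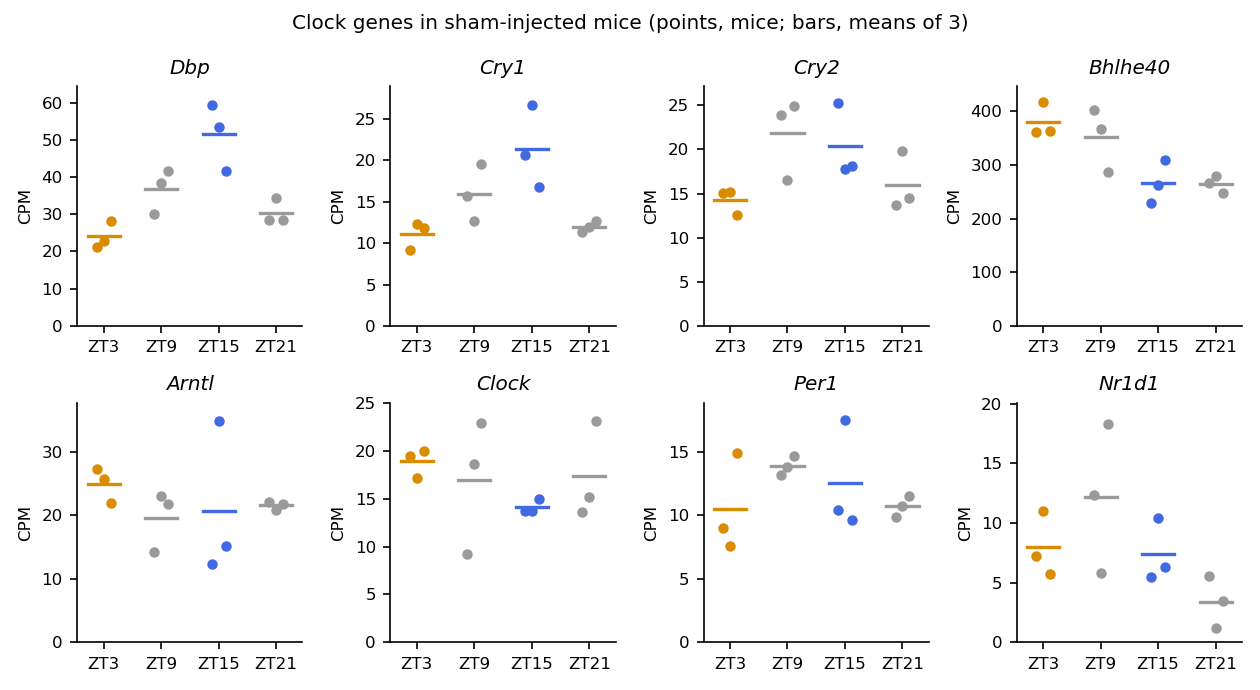
Level in CPM of 8 clock genes at ZT3, ZT9, ZT15 and ZT21 in sham mice (points are mice, bars are means of 3). Dbp and Cry1 are highest at ZT15 and Bhlhe40 is highest at ZT3, whereas Arntl has a single high ZT15 mouse at 34.8 CPM.

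Cholesterol synthesis leaned towards ZT3. Of 24 genes tested, 5 were higher at ZT3 and 1, Dhcr7, at ZT15, beside 5.80% and 3.80% of all genes. The list's median was -0.27, and 6 of 24 lay above 0 against 44.4% of all genes tested. Insig1, which holds back SREBP when sterols are plentiful, was at 35.5, 48.8 and 40.2 CPM at ZT3 and at 24.2, 22.8 and 27.1 CPM at ZT15 (-0.73 ± 0.28, adjusted p = 0.499), and the groups did not overlap.
The enzymes Acat2 (-0.53 ± 0.20), Hmgcs1 (-0.50 ± 0.19) and Sqle (-0.53 ± 0.23) were also higher at ZT3. Dhcr7, which catalyses the last step, was at 9.54, 10.9 and 10.4 CPM at ZT3 and at 17.0, 12.5 and 13.9 CPM at ZT15 (0.47 ± 0.19). In the fatty acid list of 12 genes the elongase Elovl6 (-1.03 ± 0.32) and the lipogenic regulator Srebf1 (-0.58 ± 0.24) were higher at ZT3 and none was higher at ZT15. Elovl6 passed in 6 and Srebf1 in 3 of 6 refits that left out 1 mouse. Dhcr7 passed in 2 of those 6 refits. With the values of each mouse centred within bins of transcript length (length centring, an alternative chosen after seeing the data) the cholesterol list had a median of -0.18 and 3 genes higher at ZT3. The cholesterol count rested on single mice, with 1 gene higher at ZT3 without the first or the second ZT15 mouse or without the second ZT3 mouse, 2 without the third ZT3 mouse and 4 without either other mouse.

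Ribosomal protein and respiratory chain genes leaned towards ZT15. All 25 cytosolic ribosomal protein genes tested lay above 0 with a median of 0.34. Of these, 4 were higher at ZT15 (Rpl8, Rpl13, Rps14 and Rpl18), beside 3.80% of all genes, and the groups did not overlap in 10 with ZT15 above, beside 6.59%. After median-of-ratios scaling 9 were higher at ZT15, beside 5.07%. Rpl8 was at 279, 274 and 342 CPM at ZT3 and at 414, 466 and 336 CPM at ZT15 (0.44 ± 0.18), and the third ZT15 mouse lay inside the ZT3 range. Of 22 genes of oxidative phosphorylation 4 were higher at ZT15 (Cox7a2, Cox5b, Ndufb5 and Cox5a) and 0 at ZT3, beside 3.80% and 5.80% of all genes, with a median of 0.21. The count at ZT15 was 0 without the first or second ZT15 mouse or the second ZT3 mouse, 2 without the third and 3 without the first ZT3 mouse, and 9 without the third ZT15 mouse. Cox5b was at 185, 167 and 190 CPM at ZT3 and at 284, 255 and 194 CPM at ZT15.
These genes are short, and the level of short transcripts against long ones differed between the mice. Genes were divided into 5 equal bins by their longest annotated transcript. The median deviation of the bin of shortest transcripts minus that of the longest was 0.29 (log2) in the second and 0.15 in the first ZT15 mouse but 0.02 in the third, and -0.30 in the second ZT3 mouse against 0.01 and 0.03 in the others. Genes higher at ZT15 had a median longest transcript of 2190 bases, those higher at ZT3 of 3849 bases, and all genes tested of 3372 bases.
With the values centred within bins of transcript length, 519 genes (4.34%) were higher at ZT15 and 480 (4.01%) at ZT3. The median was then 0.15 for the ribosomal list, 0.03 for oxidative phosphorylation and 0.49 for the heat shock and cold-inducible list, with 4, 2 and 9 members higher at ZT15. The ribosomal count was 0 without the first or second ZT15 mouse or the first or second ZT3 mouse, and 16 without the third ZT15 mouse. RNA integrity of the samples was not given in the sources used here, and its part in this was not tested.

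**Figure D4:**
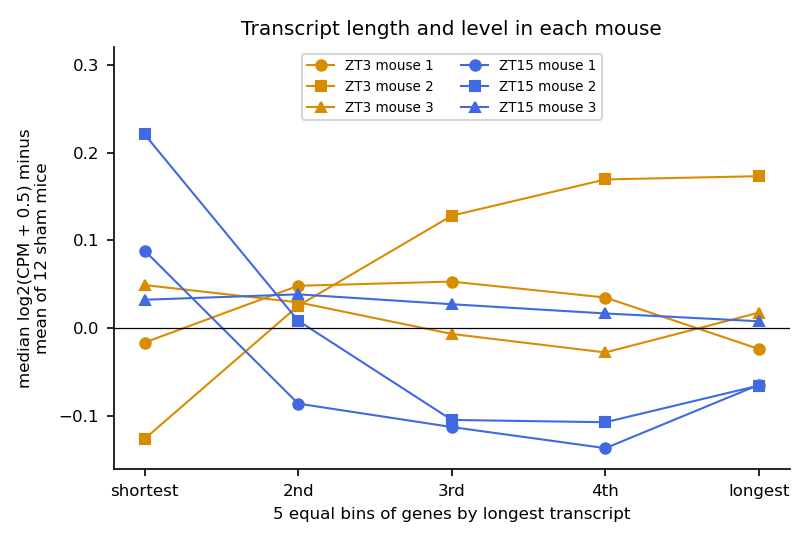
Median deviation of log2(CPM + 0.5) from the mean of the 12 sham mice (vertical axis) for genes in 5 bins of transcript length (horizontal axis), with 1 line per ZT3 or ZT15 mouse. The second ZT15 mouse slopes down towards long transcripts and the second ZT3 mouse slopes up, while the third mouse of each timepoint is nearly flat.

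In the lists of DC function and signalling that follow, the counts of genes called are small and are to be read against the 5.80% of all genes higher at ZT3 and the 3.80% higher at ZT15. None of 13 co-stimulation genes had an unadjusted p under 0.05, and the list median was -0.30 with 1 of 13 genes above 0. Cd80, the ligand of CD28 and CTLA-4 (chromosome 16, 38457430 to 38495958), was at 14.2, 10.5 and 11.5 CPM at ZT3 and at 6.57, 11.6 and 9.67 CPM at ZT15 (-0.39 ± 0.21, adjusted p = 0.553, and two-sided exact permutation p = 0.3). The second ZT15 mouse lay within the ZT3 range. The ZT9 and ZT21 means of Cd80 were 17.7 ± 3.01 and 8.74 ± 0.634 CPM (SD, n = 3), and the difference ZT21 minus ZT9 was -0.97 (limma adjusted p = 0.722 over all genes). These groups did not overlap, with 17.4, 20.8 and 14.8 CPM at ZT9 and 8.02, 9.24 and 8.95 CPM at ZT21.
Without the third ZT15 mouse, 5 of the 13 had an unadjusted p under 0.05 and were higher at ZT3, where 8.65% of all genes were: Cd83, Pdcd1lg2 (PD-L2), Tnfsf4 (OX40L), Cd276 and Slamf1. Cd83 was at 2133, 2402 and 2007 CPM at ZT3 and at 1729, 1474 and 2177 CPM at ZT15, so that the left-out mouse was inside the ZT3 range. When any other of the 6 mice was left out, 1 of the 13 was higher at ZT3.
Of 11 MHC class II presentation genes 1 was higher at ZT3, H2-Oa, a part of the HLA-DO homologue that restrains peptide loading (43.3, 54.0 and 63.4 CPM against 37.7, 37.0 and 38.2 CPM). Its p passed 0.05 in 1 of 6 refits that left out 1 mouse and passed in neither refit without the second or the third ZT15 mouse. None of the 13 MHC class I presentation genes, of the 13 priming cytokines or of the 15 glycolysis genes had an unadjusted p under 0.05. Among 16 genes of the migratory DC programme none did either, with Ccr7 at -0.23 ± 0.16 and Fscn1 at -0.38 ± 0.22.
Of 18 chemokine genes 2 were higher at ZT3 (4 without the second ZT15 mouse) and 0 at ZT15. The receptor Ccr9 was at 24.6, 25.4 and 24.6 CPM at ZT3 and at 13.3, 10.7 and 18.7 CPM at ZT15 (-0.82 ± 0.20, adjusted p = 0.353). Ccr9 is also in the list of plasmacytoid DC markers, of which Siglech (67.3, 68.1 and 67.8 CPM against 49.8, 42.6 and 38.6 CPM) and Runx2 were higher at ZT3 too and Bst2 was higher at ZT15, so that 4 of the 10 had an unadjusted p under 0.05, beside 9.60% of all genes. Siglech passed in 6, Runx2 in 1 and Bst2 in 3 of 6 refits that left out 1 mouse. In bulk cells, fewer cells of a type and less RNA per cell cannot be told apart. The summed level of the 10 plasmacytoid DC markers was 455 to 553 CPM at ZT3 and 435 to 516 CPM at ZT15.
Batf3, the transcription factor required for type 1 conventional DCs, was at 119, 132 and 132 CPM at ZT3 and at 171, 178 and 179 CPM at ZT15 (0.47 ± 0.12, adjusted p = 0.417), and the groups did not overlap. None of the other 12 type 1 markers had an unadjusted p under 0.05, nor did any of 13 type 2 markers. Among the markers shared by conventional DCs Kit was higher at ZT3 (-0.61 ± 0.19), but its p did not pass 0.05 with length centring.
Interferon-stimulated genes had a median of -0.43 over 22 genes, the lowest of the 20 programme lists, with 3 above 0, but only Ifit3 and Ifi44 were higher at ZT3 at an unadjusted p under 0.05. Ifit3 was at 14.4, 42.8 and 26.8 CPM at ZT3 and at 1.53, 3.58 and 7.25 CPM at ZT15 (-2.70 ± 0.76, adjusted p = 0.452), and at ZT21 it spread with an SD of 24.5 CPM around 23.9 CPM. Bst2 was higher at ZT15 (0.31 ± 0.13), but not with length centring. It also did not pass without the second ZT15 mouse or without the first or the third ZT3 mouse. The count at ZT3 was 4 without the second ZT15 mouse or the first ZT3 mouse, 1 without the first ZT15 mouse or the second ZT3 mouse and 2 without either other mouse. Ifi44 passed in 2 of these 6 refits. The summed level of the list was 1275, 1908 and 1299.5 CPM at ZT3 and 1061, 1269.95 and 1327 CPM at ZT15, so the second ZT3 mouse was the highest.
The glucocorticoid target Tsc22d3 (GILZ) was at 273, 231 and 244 CPM at ZT3 and at 348, 309 and 348 CPM at ZT15 (0.43 ± 0.15, adjusted p = 0.479). Of the other 13 targets Dusp1, a MAP kinase phosphatase, was higher at ZT3 (-0.30 ± 0.13), and it did not pass after median-of-ratios scaling or length centring. Tsc22d3 passed in 5 (not without the second ZT3 mouse) and Dusp1 in 1 (without the third ZT15 mouse) of 6 refits that left out 1 mouse. Pik3cb and Mlst8 were higher at ZT3 among 18 genes of mTOR and AKT signalling, and Tyms was higher at ZT15 among 22 cell cycle genes. Pik3cb and Mlst8 each passed in 2 and Tyms in 5 of 6 refits that left out 1 mouse.

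**Figure D5:**
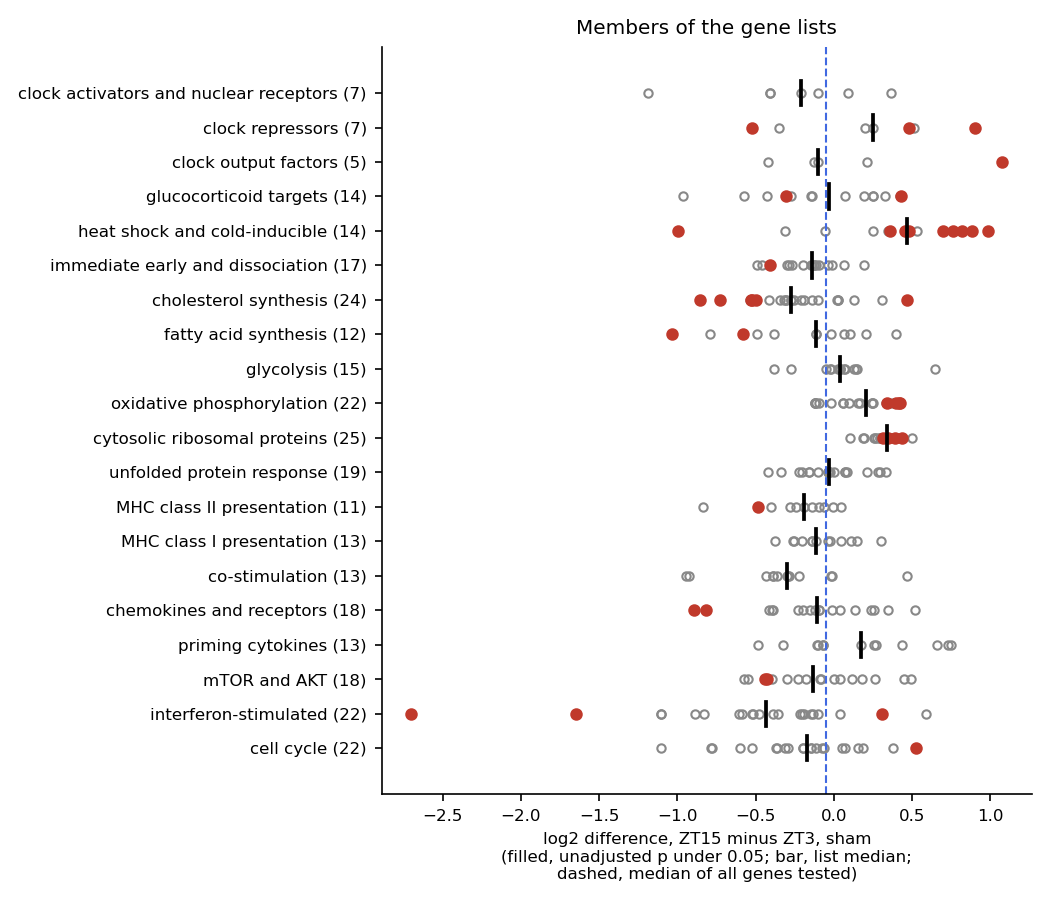
Log2 difference in CPM between ZT15 and ZT3 in sham mice (horizontal axis) for each member of 20 gene lists, with filled points for an unadjusted p under 0.05, a bar at the list's median and a dashed line at the median of all genes tested, -0.05. The heat shock and cold-inducible list holds 8 filled points on the right, and the interferon-stimulated list has the lowest median of these 20, -0.43.

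The lists of other cell types were examined in the same way. Cd3d was the only 1 of 23 T cell genes with an unadjusted p under 0.05 (63.6, 47.9 and 60.5 CPM at ZT3, 80.9, 122 and 61.4 CPM at ZT15). Its p did not pass 0.05 with length centring. Nor did it pass without the first or second ZT15 mouse (0.21 without the second) or without the first or second ZT3 mouse. In the stroma and endothelium list 3 of the 9 genes tested had an unadjusted p under 0.05, beside 9.60% of all genes. Vwf and Pecam1 were higher at ZT3 and Dcn at ZT15, all below 13 CPM, and Pecam1 passed in 1 of 6 refits that left out 1 mouse. The summed level of the 14 genes of the list with values, tested or not, was 46.3 to 57.5 CPM at ZT3 and 47.8 to 67.9 CPM at ZT15. No marker of NK cells, B cells, plasma cells, macrophages and monocytes, granulocytes and mast cells, Langerhans cells, keratinocytes, red blood cells or melanoma had an unadjusted p under 0.05. The 7 genes of the melanoma list with values, of which 3 were tested, summed to 3.59 to 10.1 CPM in these mice without tumour cells.

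The same difference, ZT15 minus ZT3, was taken in the control mice with tumour cells, which are other mice with other controls. Dbp was similar. In control mice with tumour cells it was 15.3 to 29.0 CPM at ZT3 and 39.9 to 48.1 CPM at ZT15 (0.91 ± 0.14, SE, limma adjusted p = 0.0503), and in those labelled Bmal1ΔcDC it was 16.2 CPM and 38.3 CPM on average (1.24). The test of the difference between sham and tumour-injected control mice (sham minus tumour-injected) gave 0.16 ± 0.23 (adjusted p = 0.915). Cirbp and Hsp90aa1 had the same sign with tumour cells as in sham, at -0.39 ± 0.13 and 0.39 ± 0.13, and Dnaja1 had 0.55. The heat shock and cold-inducible list had a median of 0.22 with tumour cells, with 6 of 14 genes higher at ZT15 and 1 higher at ZT3 at an unadjusted p under 0.05. Of all genes 8.72% had such a p there, 3.18% higher at ZT15 and 5.53% higher at ZT3. In mice labelled Bmal1ΔcDC its median was 0.37, with 7 and 1 genes, beside 8.06% of all genes, 6.44% higher at ZT15 and 1.61% higher at ZT3.
Of the 454 genes higher at ZT15 in sham mice, 291 (64.1%) had the same sign in control mice with tumour cells, where 41.5% of all genes had it. Of the 694 higher at ZT3, 513 (73.9%) had the same sign, against 58.5% of all genes. In mice labelled Bmal1ΔcDC the shares were 50.2% (61.5% of all genes) and 37.6% (38.5%). The genes with an unadjusted p under 0.05 in both sham and tumour-injected control mice were 34 higher at ZT15 (7.49% of the sham genes and 8.92% of the 381 tumour genes) and 82 higher at ZT3 (11.8% and 12.4% of 662). Of the 454 and 694 sham genes, 5 and 4 had such a p there in the opposite direction. In mice labelled Bmal1ΔcDC, 31 and 16 had it in the same direction and 2 and 36 in the opposite one.
Interaction values are the sham difference minus that of the tumour-injected control mice. At ZT3 and ZT15, tumour-injected control libraries held 20406761 to 28962671 reads on genes, and sham libraries 35183297 to 49590055. The part of depth in these comparisons was not tested. In no gene did the ZT15 minus ZT3 difference differ between the treatments at an adjusted p under 0.05 (limma interaction over 11963 genes). In 789 genes (6.60%) the unadjusted p was under 0.05. Those with the smallest p were Btbd1, Cyp20a1 and Usp45. Btbd1, lower at ZT15 in sham, was at 56.2 to 83.5 CPM at ZT3 and 72.2 to 85.8 CPM at ZT15 with tumour cells (difference of the differences -0.87 ± 0.17, adjusted p = 0.0989). Cyp20a1 was at 4.28 to 6.51 CPM and 4.85 to 7.64 CPM with tumour cells (-1.78 ± 0.35, adjusted p = 0.0989).
Usp45 was at 4.0 to 9.35 CPM at ZT3 and 3.46 to 8.81 CPM at ZT15 with tumour cells (2.09 ± 0.51, adjusted p = 0.472), so the low ZT3 level of the sham mice had no counterpart there. Cry1 was at 5.91 to 11.4 CPM and 5.31 to 14.8 CPM with tumour cells (0.05 ± 0.28), and sham minus tumour-injected was 0.85 ± 0.40 (adjusted p = 0.750). Rbm3 had the opposite sign to sham with tumour cells (0.28), with an interaction of -0.59 (adjusted p = 0.719). Cd80 was at 12.3 to 18.9 CPM at ZT3 and 7.39 to 12.3 CPM at ZT15 with tumour cells (-0.68 ± 0.16). Its sham difference minus that with tumour cells was 0.30 ± 0.27 (adjusted p = 0.871).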

How the data were processed

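The series comprises 44 bulk RNA-seq libraries, each of 1 mouse (SMART-Seq v4 and Nextera XT, 50-base single reads). The authors used STAR for alignment to the mm10 build and HTSeq 0.9.1 for gene counts, scaled these counts with edgeR and deposited 1 table of CPM (counts per 1000000 reads), each library adding up to 1000000. The most frequent low value was taken as 1 read (0.0202 to 0.0357 CPM in sham libraries), which gives the depths printed. In a sham library 88.0% to 89.4% of the values above 0 are then whole reads (within 0.01 of a read). The rest, among them Dbp, Dnaja1, Hspa1a and Hspa1b in 97.7% of libraries each, are fractions of a read, so no count test was run and no counting interval is given.

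Groups were taken from the labels. The 12 sham libraries were fitted with limma 3.58.1 (R 4.3.3) on log2(CPM + 0.5), with 1 mean per timepoint and the contrast ZT15 minus ZT3. This scale understates the change of low genes. Genes reaching 1 CPM in 5 or more libraries were kept. The interaction was fitted on 32 libraries, and the groups with tumour cells were each fitted alone. The code was tested on simulated data. Gene positions and promoters are from RefSeq GRCm38.p6, transcript lengths from GENCODE M21.

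Named were the 10 genes with the smallest p in each direction (mean of at least 5 CPM), all clock genes, up to 4 members of each list, the 3 leading interaction genes and DC markers. Some list members are not reported here. Naming the further members of the heat shock and cholesterol lists was added after their values were seen, as were the heat shock element search and the genes named from other settings. Members and lists were chosen with earlier results of these data known. Alternatives were pseudocount, scaling, filter, spread estimate, libraries in the fit, replicate block and leaving out each mouse. Centring on transcript length was chosen after seeing the data.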

Additional observations from a re-analysis of the deposited data

Results flagged for a closer look

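Usp45 was at 3.46 CPM in 1 of the 5 control mice with tumour cells of ZT15, set apart below the other 4 by more than Dixon's limit for 5 samples. Such a limit marks about 1 in 20 groups by chance, and the levels of 7 genes were examined in 2 groups.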

How the results depend on the processing

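The count of genes with an adjusted p under 0.05, 0 in sham mice, was 12 with all 44 libraries in the fit (Dbp, Btbd1, Cirbp, Klhl5, Rnf187, Larp6, Dynll1, Cyp20a1, Eif2ak3, Dnaja1, Faf1 and Hsp90ab1), 2 with an intensity trend (Dynll1 and Eif2ak3) and 2 with no filter on low values (Asphd2 and Tub, both under 2 CPM), and 0 to 1 when 1 mouse was left out. Leaving out 1 mouse gave 225 to 716 genes higher at ZT15 and 443 to 1035 higher at ZT3 (unadjusted). The interaction count, 0 adjusted, was 1 under median-of-ratios scaling, 1 with length centring and 1 without the filter, and 0 to 4 when 1 mouse was left out. The unadjusted interaction count was 516 for genes with a mean of at least 10 CPM, and 625 (without the second sham ZT15 mouse) to 1221 (without the third) when 1 mouse was left out. The cause was not tested, other than that the 10 CPM filter tests fewer genes.

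Same-numbered mice did not deviate together (r from -0.171 to 0.0889, and 1 of 12 sham mice correlated best with its own number). The labels do not say whether equal numbers share an experiment or batch, and weak correlations with 3 mice per group cannot exclude it. With a replicate block, 341 genes were higher at ZT15, 643 higher at ZT3 and 736 had an unadjusted interaction p under 0.05. No gene passed adjustment with the block. Of 70 named genes with an unadjusted p under 0.05, refitted in 1669 fits, 1404 fits kept the call, 265 lost it and 0 turned the direction. Scaling by median of ratios lost 7 of them, length centring 14 and the block 13. Of the 454 genes higher at ZT15, 371 remained without the third ZT15 mouse and 172 without the second. Since the values are not counts, the counting error of low genes could not be given.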
